A study of Homo sapiens with 44 samples.

Results

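The calmodulin-dependent kinases, the CaMKII inhibitor CAMK2N1 and the AMPK subunits that one of these kinases acts on were followed in castration-resistant VCaP xenograft tumors. The 10 members were given by symbol: the inhibitor CAMK2N1, the CaMKII subunits CAMK2B, CAMK2D and CAMK2G, the kinase kinases CAMKK1 and CAMKK2, the kinase CAMK1, and the AMPK subunits PRKAA1, PRKAA2 and PRKAB1. Levels are in CPM, the count scaled to the TMM-adjusted library size. A member was to be dropped if its mean fell below 0.5 CPM of the unadjusted library total, and none was. The marker sums below also use unadjusted totals. All 10 passed the low-count filter as well, out of 23368 genes in the deposited count table, of which 13520 were tested.

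VCaP, a human prostate cancer line with the TMPRSS2-ERG fusion, was used at passage 61. Tumors grew in athymic nude mice (Foxn1nu), which lack mature T cells, and every mouse, controls included, was castrated before treatment. Treatment by gavage once daily for 4 weeks began once serum PSA had returned to its level before castration. The arms were vehicle (15 tumors), enzalutamide at 20 mg/kg/day (14 tumors, 13 used) and ARN-509 at 20 mg/kg/day (15 tumors). Enzalutamide and ARN-509 are both antiandrogens, drugs that block the action of androgens. The libraries equal the mice treated in number, so each was taken as 1 tumor of 1 mouse. All tumors derive from 1 cell line, have no human stroma, and were taken after a single treatment time.

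Calcium that enters the cytoplasm binds calmodulin, and calcium-bound calmodulin switches on a family of protein kinases. CaMKII is a holoenzyme built from alpha, beta, gamma and delta subunits, each from its own gene, and small endogenous inhibitor proteins, CAMK2N1 and CAMK2N2, bind and block its active kinase domain. The kinase kinases CAMKK1 and CAMKK2 phosphorylate CAMK1, CAMK4 and the catalytic alpha subunit of AMPK, the cell's sensor of energy shortage. CAMKK2 is known as an androgen-induced gene in prostate cancer.

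The inhibitor is a small protein. CAMK2N1 is shown because its transcript differed most widely between vehicle and both drug arms. Its coding sequence has 237 bases and 78 codons before the stop, at positions 842 to 1078 of a 2336-base transcript (GENCODE v29, GRCh38, sense strand), with the start and stop codons in capitals.
CAMK2N1 coding sequence: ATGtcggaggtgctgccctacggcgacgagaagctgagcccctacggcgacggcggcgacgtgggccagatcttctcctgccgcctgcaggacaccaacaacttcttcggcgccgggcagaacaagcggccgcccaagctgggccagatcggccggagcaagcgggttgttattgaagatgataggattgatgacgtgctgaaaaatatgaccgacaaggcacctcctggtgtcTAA
Reads of near-identical copies can be split in counting, so shared stretches were measured. The longest run of identical bases between the CAMK2N1 and CAMK2N2 transcripts was 23 bases. Between the transcripts of other members and of genes related to them it was between 20 and 26 bases. The longest coding transcript of each gene was used.

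For the kinases, the windows from 250 bases before to 50 bases after the start site are shown for CAMKK2, which fell with ARN-509, for its paralog CAMKK1, and for CAMK2D, which rose with both drugs (RefSeq, GRCh38.p14). The CAMKK2 window is chr12:121296660-121296959, that shown for CAMKK1 (1 of 2 listed) chr17:3890694-3890993 and that of CAMK2D chr4:113761689-113761988, all on the minus strand. Capitals mark AGAACA, the half-site of the androgen response element, searched on both strands.
CAMKK2: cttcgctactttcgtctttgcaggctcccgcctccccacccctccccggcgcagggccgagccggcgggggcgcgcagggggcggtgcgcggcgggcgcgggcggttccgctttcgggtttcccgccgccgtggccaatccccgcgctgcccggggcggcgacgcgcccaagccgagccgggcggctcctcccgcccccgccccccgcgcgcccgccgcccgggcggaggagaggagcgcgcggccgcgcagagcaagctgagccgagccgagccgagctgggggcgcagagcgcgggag
CAMKK1: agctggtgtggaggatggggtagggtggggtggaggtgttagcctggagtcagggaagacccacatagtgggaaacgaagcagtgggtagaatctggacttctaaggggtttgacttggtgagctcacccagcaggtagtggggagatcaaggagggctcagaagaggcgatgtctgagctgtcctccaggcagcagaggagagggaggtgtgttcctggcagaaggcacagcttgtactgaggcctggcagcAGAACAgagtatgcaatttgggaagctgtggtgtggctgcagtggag
CAMK2D: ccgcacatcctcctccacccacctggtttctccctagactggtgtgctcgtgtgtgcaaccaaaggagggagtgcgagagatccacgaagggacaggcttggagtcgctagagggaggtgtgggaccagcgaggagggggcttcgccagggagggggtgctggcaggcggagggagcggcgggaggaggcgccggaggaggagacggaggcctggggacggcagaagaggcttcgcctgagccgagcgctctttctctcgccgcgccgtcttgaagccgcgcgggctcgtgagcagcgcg
Windows were matched for 9 of the 10 members, in 10 entries. The half-site stood in 1 of these entries, 1 of the 2 start sites listed for CAMKK1, at position 254 of the window. That entry is the one shown, with 57% GC. The other CAMKK1 window, chr17:3893004-3893303, has 82.7% GC and no half-site. Of all 35116 promoter windows of the same length, 14.8% held it. The full palindrome, which is AGAACA, 3 bases of any kind and TGTTCT, stood in 0.00285% of all windows and in none of the members' entries. The absence of these letters says only that they are not in these 300 bases.

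The 43 libraries held between 3377450 and 30125004 counts (medians 5713659 in vehicle, 8623565 in enzalutamide and 7487470 in ARN-509). Enzalutamide 4 held 80142 counts, with 8 for CAMK2N1 and 4 for CAMKK2, and was left out. Luminal prostate markers (7 of 7 tested, among them KLK3, HOXB13 and ERG) summed to between 6483 and 9431 CPM in vehicle tumors, 7089 and 9381 in enzalutamide tumors, and 6398 and 8457 in ARN-509 tumors. Neuroendocrine markers (7 of 8 tested) summed to between 258.5 and 469.8 CPM in vehicle, 365.4 and 523.1 in enzalutamide and 281.9 and 498.1 in ARN-509 tumors. Markers of fibroblasts (2 of 7 tested), leukocytes (1 of 5), endothelium (0 of 5) and skeletal muscle (0 of 6) each summed to at most 24.3 CPM in any tumor, and CD3E was at 0 in every library. The endothelial sum ran from 1.91 to 6.77 CPM in vehicle, from 0.417 to 2.75 in enzalutamide and from 0.213 to 1.71 in ARN-509 tumors. The part of these differences in the results was not tested. In bulk tumor RNA, fewer cells of a type and less RNA per cell cannot be told apart. The fibroblast, leukocyte, endothelial and muscle sums count human genes in tumors without human stroma. How mouse reads were handled is not given, so these sums do not measure the amount of host cells.

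Fold changes also followed base composition. Across 12025 genes with a transcript of known sequence, the log2 fold change had a Spearman correlation with GC content of 0.21 for enzalutamide against vehicle, -0.42 for ARN-509 against vehicle and 0.62 for enzalutamide against ARN-509, as a description across genes. The trend of a library's log2 level per 10% of GC content was steepest upward in vehicle 8 (0.287) and enzalutamide 9 (0.331) and steepest downward in ARN-509 12 (-0.326). Values from a fit in which this trend, and that with transcript length, was taken out of every library (GC and length correction below) are therefore given beside the members they change. The GC content of the members' transcripts ran from 35.2% in PRKAA2 to 60.0% in CAMK2B, and the median of the genes tested was 48.9%.

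The first question was whether either antiandrogen was accompanied by a change in these genes against vehicle. Enzalutamide tumors had 2 of the 10 members higher (CAMK2N1 and CAMK2D) and 0 lower, where 5.1% of all tested genes were called higher and 5.67% lower (10.8% in all). At an unadjusted p under 0.05, 2 members were lower, and 1 was lower by DESeq2 and 2 by limma voom. ARN-509 tumors had the same 2 higher and 2 lower (CAMKK2 and CAMK1), where 14.7% of genes were called higher and 16.1% lower (30.8% in all). The medians of the members' log2 fold changes were 0.0066 and 0.05, and those of all genes tested were -0.0040 and -0.0011. Both comparisons use the same 15 vehicle tumors. These calls come from edgeR's quasi-likelihood test with Benjamini-Hochberg adjustment over all tested genes and a threshold of 0.05, as do all adjusted p-values of single genes below. The ± on a log2 fold change is its SE, and that on a level is the SD.

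**Figure D1:**
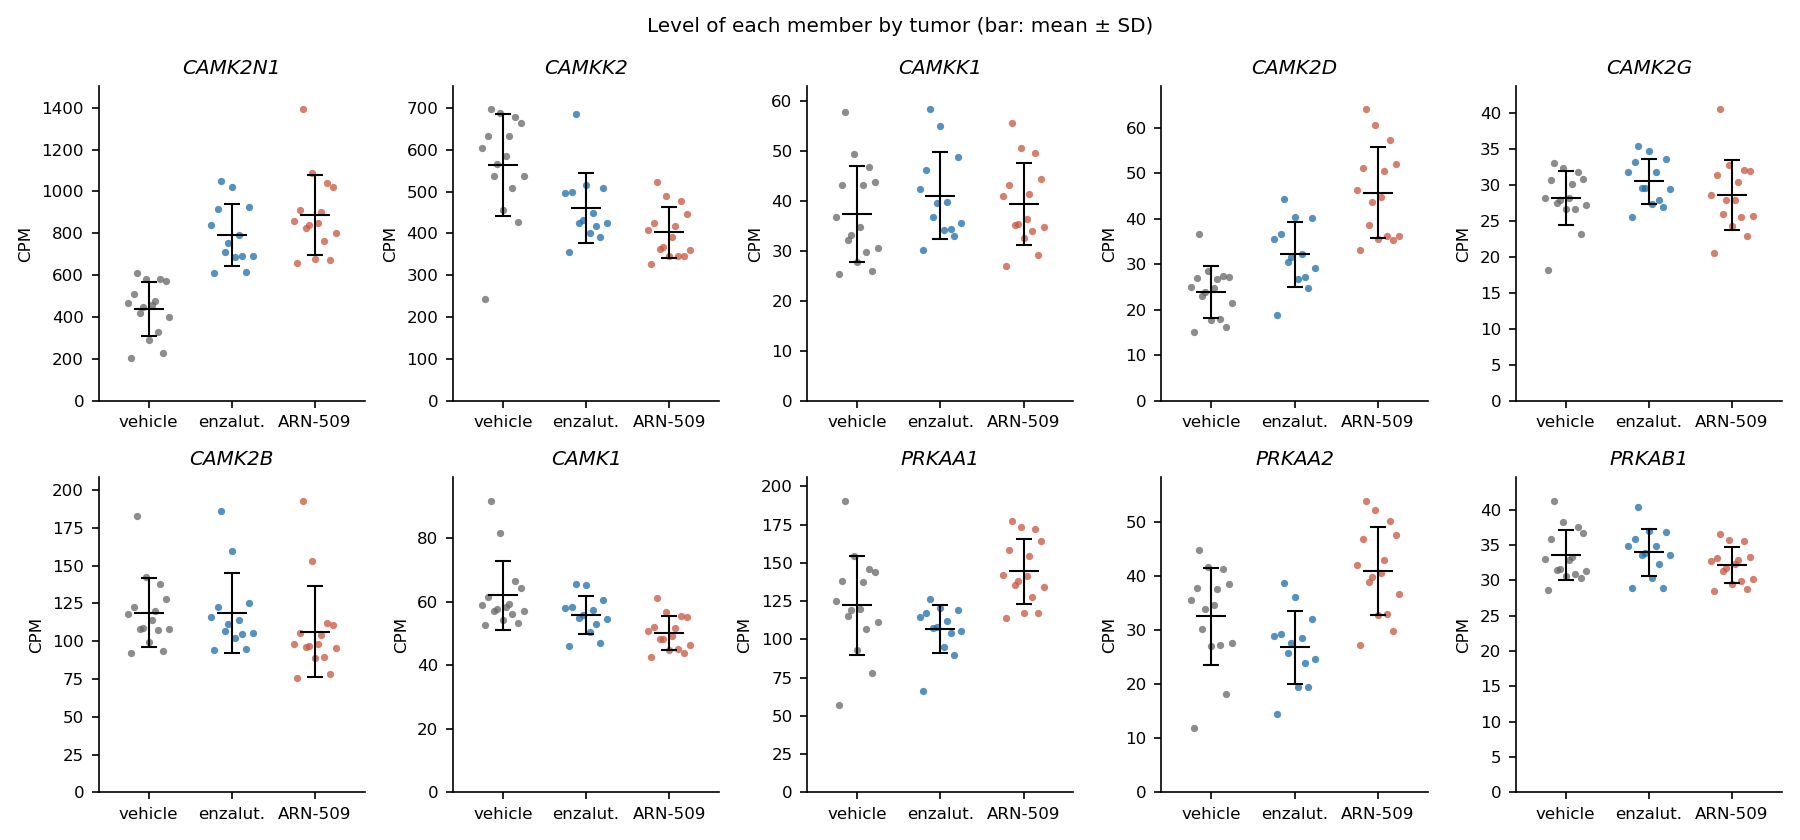
Level of each of the 10 members in CPM (vertical axes, from 0) in every tumor of the vehicle (n = 15), enzalutamide (n = 13) and ARN-509 (n = 15) arms; bars are the mean ± SD. Every CAMK2N1 point of the drug arms lies above the highest vehicle point of 609.1 CPM, and the ARN-509 points of CAMKK2 lie at or below 522 CPM.

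CAMK2N1 rose in both drug arms. Its level ran from 206 to 609.1 CPM in vehicle tumors (median 459, mean 439 ± 128, n = 15). It ran from 610.3 to 1052 CPM in enzalutamide tumors (median 753, mean 792 ± 147, n = 13). In ARN-509 tumors it ran from 658 to 1392 CPM (median 851, mean 887 ± 191, n = 15). All 13 enzalutamide and all 15 ARN-509 tumors thus lay above every vehicle tumor, although the highest vehicle tumor (vehicle 12) and the lowest enzalutamide tumor (enzalutamide 8) almost touched. Among the 13520 genes tested, arms without overlap were found for 0.0666% against enzalutamide and 0.185% against ARN-509, and between the drugs for 0.0148% and for none of the members. When levels were scaled to library totals, 2 enzalutamide tumors lay at or below the highest vehicle tumor.

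The log2 fold change of CAMK2N1 was 0.85 ± 0.13 with enzalutamide (1.81-fold, adjusted p = 3.87e-06) and 1.02 ± 0.12 with ARN-509 (2.02-fold, adjusted p = 3.98e-08). The difference between the drugs was -0.16 (95% interval -0.42 to 0.10, adjusted p = 0.344), so a difference in either direction within that interval was not resolved. Without any single library the values stayed between 0.80 and 0.89 for enzalutamide and between 0.96 and 1.06 for ARN-509. The other CaMKII inhibitor gene, CAMK2N2, averaged 9.31 ± 3.86, 9.57 ± 1.81 and 7.98 ± 1.97 CPM in vehicle, enzalutamide and ARN-509 tumors. Its log2 fold changes of 0.05 and -0.20 did not pass the test (adjusted p = 0.882 and 0.318).

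Of the CaMKII subunits that the inhibitor binds, CAMK2D rose with both drugs while CAMK2B and CAMK2G did not pass the test. CAMK2D encodes the delta subunit. Its level ran from 15.1 to 36.7 CPM in vehicle tumors (median 24.8, mean 23.9 ± 5.63), from 18.9 to 44.3 CPM in enzalutamide tumors (median 31.5, mean 32.1 ± 7.13), and from 33.1 to 64.0 CPM in ARN-509 tumors (median 44.7, mean 45.7 ± 9.97). All 15 ARN-509 tumors stood above the vehicle median and 10 above the highest vehicle tumor, whereas 3 of 13 enzalutamide tumors did.

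The log2 fold change of CAMK2D was 0.43 ± 0.12 with enzalutamide (1.34-fold, adjusted p = 0.0139) and 0.93 ± 0.12 with ARN-509 (1.90-fold, adjusted p = 5.32e-08). Between the drugs it was lower in enzalutamide tumors by a log2 difference of -0.50 ± 0.12 (adjusted p = 0.00445), and all 13 enzalutamide tumors lay below the ARN-509 median. The CAMK2D transcript has 42.9% GC. After GC and length correction the 3 values were 0.48, 0.82 and -0.34, and each passed the test (adjusted p = 4.85e-04, 1.14e-08 and 0.0275). At a depth thinned to that of the smallest library, the enzalutamide value was 0.39 and did not pass (adjusted p = 0.0562).

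CAMK2B, the beta subunit, ran from 91.9 to 183 CPM in vehicle, from 94.4 to 186 CPM in enzalutamide and from 75.8 to 193 CPM in ARN-509 tumors. The 3 ranges overlapped. Of the 15 ARN-509 tumors, 13 lay below the vehicle median, 4 of them below the lowest vehicle tumor, and 1 lay above the highest. Its log2 fold changes were -0.0027 ± 0.11 (adjusted p = 0.992) and -0.16 ± 0.11 (95% interval -0.38 to 0.06, adjusted p = 0.251). Without ARN-509 11, the tumor with the highest level, the second value was -0.25 and passed (adjusted p = 0.0455). CAMK2G, the gamma subunit, had overlapping ranges of 18.2 to 33.0, 25.5 to 35.3 and 20.6 to 40.5 CPM. Its log2 fold changes were 0.12 ± 0.08 and 0.03 ± 0.08 (adjusted p = 0.357 and 0.807). The alpha subunit CAMK2A, known for its expression in neurons, summed to only 10 counts in the 43 libraries, under the low-count filter.

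**Figure D2:**
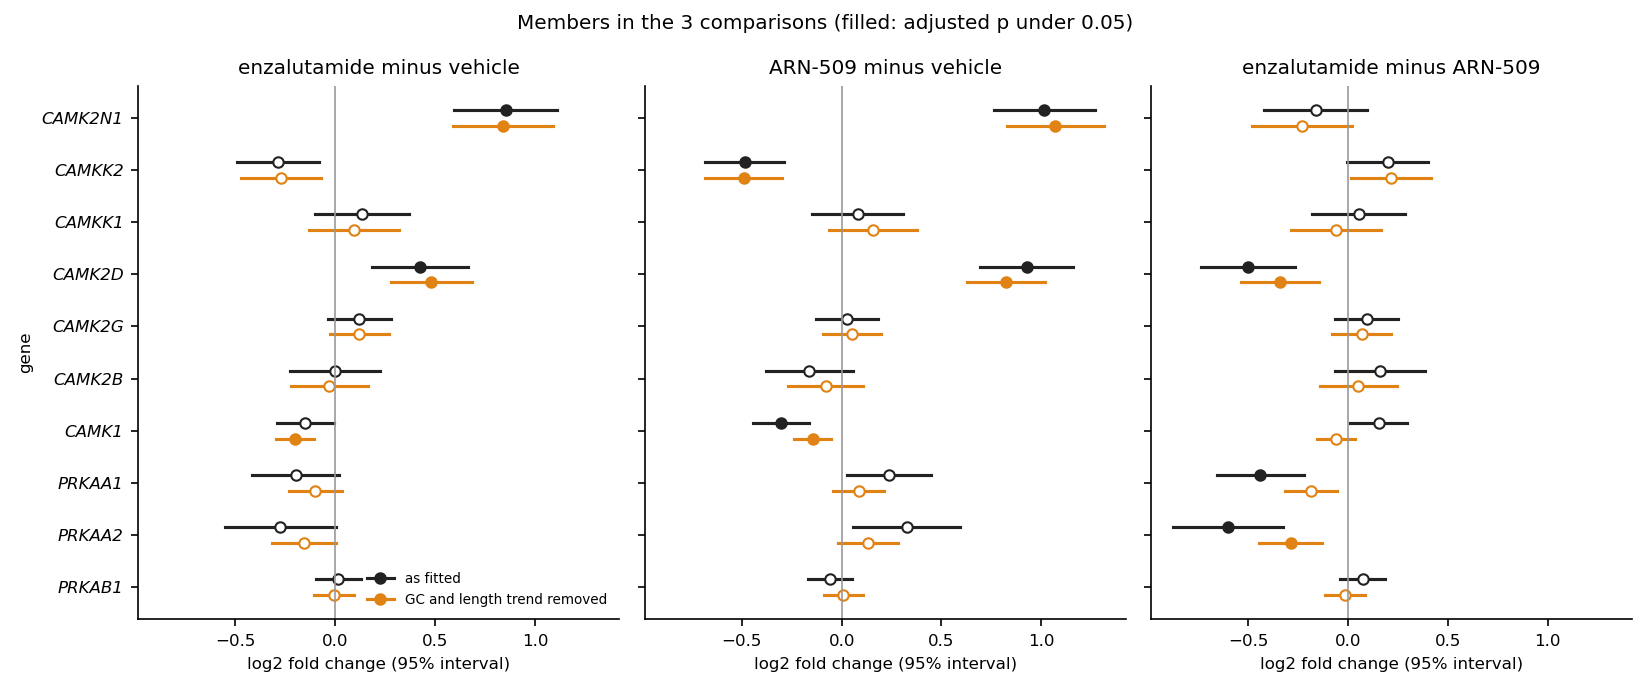
log2 fold change with its 95% interval (horizontal axes) of each member (rows) in the 3 comparisons, from edgeR's quasi-likelihood fit as it stands (black) and with each library's GC and length trend removed (orange); filled points have an adjusted p under 0.05. CAMK2N1 and CAMK2D lie to the right of 0 against vehicle in both fits, and PRKAA1 and PRKAA2 move toward 0 in the second fit.

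Levels of different genes were compared per kilobase of the longest protein-coding transcript. On that scale CAMK2N1 was the highest of the members in vehicle tumors (188 ± 54.6 CPM per kb), followed by CAMKK2 (101 ± 21.6) and CAMK1 (41.7 ± 7.30). CAMK2B (26.7 ± 5.16) and PRKAA1 (24.0 ± 6.38) came next and differed by less than their SD. PRKAB1 (12.9 ± 1.36) and CAMKK1 (10.5 ± 2.68) likewise lay within their spread. CAMK2G (7.36 ± 0.992), CAMK2D (4.11 ± 0.967) and PRKAA2 (3.49 ± 0.967) were lowest, and the last 2 overlapped. This order depends on the transcript chosen: with the median length of each gene's coding transcripts, CAMKK2 (190.0 CPM per kb) and CAMK2N1 (188) stood level in vehicle tumors. In ARN-509 tumors CAMK2D (7.85 ± 1.71) and CAMK2G (7.46 ± 1.27) stood in the other order and differed by less than their SD. That switch also rests on the transcript chosen. With median lengths CAMK2D lay above CAMK2G in vehicle (12.8 and 7.90), enzalutamide (17.2 and 8.56) and ARN-509 tumors (24.4 and 8.01).

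The balance of inhibitor to kinase transcripts was described as CAMK2N1 over the sum of CAMK2B, CAMK2D and CAMK2G, all per kilobase. The ratio ran from 2.54 to 7.00 in vehicle tumors (mean 4.92 ± 1.40), from 6.62 to 12.2 in enzalutamide tumors (mean 8.46 ± 1.37) and from 7.24 to 14.2 in ARN-509 tumors (mean 9.79 ± 1.95). The vehicle and ARN-509 ranges did not overlap, and those of vehicle and enzalutamide overlapped only between 6.62 and 7.00. The log2 ratio was higher than in vehicle by 0.83 with enzalutamide and by 1.03 with ARN-509. The size of the ratio rests on the transcript lengths, since with median lengths the means were 1.96, 3.37 and 3.85, whereas the log2 differences were then 0.83 and 1.01. The ratio combines members and was given no test.

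Within the CaMKII subunits the share of CAMK2D was 11% ± 3.04 in vehicle, 14.0% ± 3.73 in enzalutamide and 20.5% ± 5.21 in ARN-509 tumors. CAMK2B held 69.5% ± 5.57, 65.9% ± 5.59 and 60.3% ± 5.33, and remained the most abundant subunit in each arm's mean. CAMK2G kept shares of 19.5% ± 3.14, 20.2% ± 3.21 and 19.2% ± 2.81. With median lengths the shares of CAMK2D were 13.7%, 17.4% and 25.0%, so the order of the arms was the same. Those of CAMK2G were then 8.34%, 8.65% and 8.15%, below CAMK2D in each arm. The ratio and the shares use levels without GC and length correction. The CAMK2D and CAMK2B transcripts have 42.9% and 60.0% GC. The share of CAMK2D was lowest in vehicle 8 (5.10%) and highest in ARN-509 12 (31.7%), with GC trends of 0.287 and -0.326. After correction the log2 fold changes with ARN-509 were 0.82 for CAMK2D and -0.08 for CAMK2B. The part of the GC trend in these shares was not tested.

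**Figure D3:**
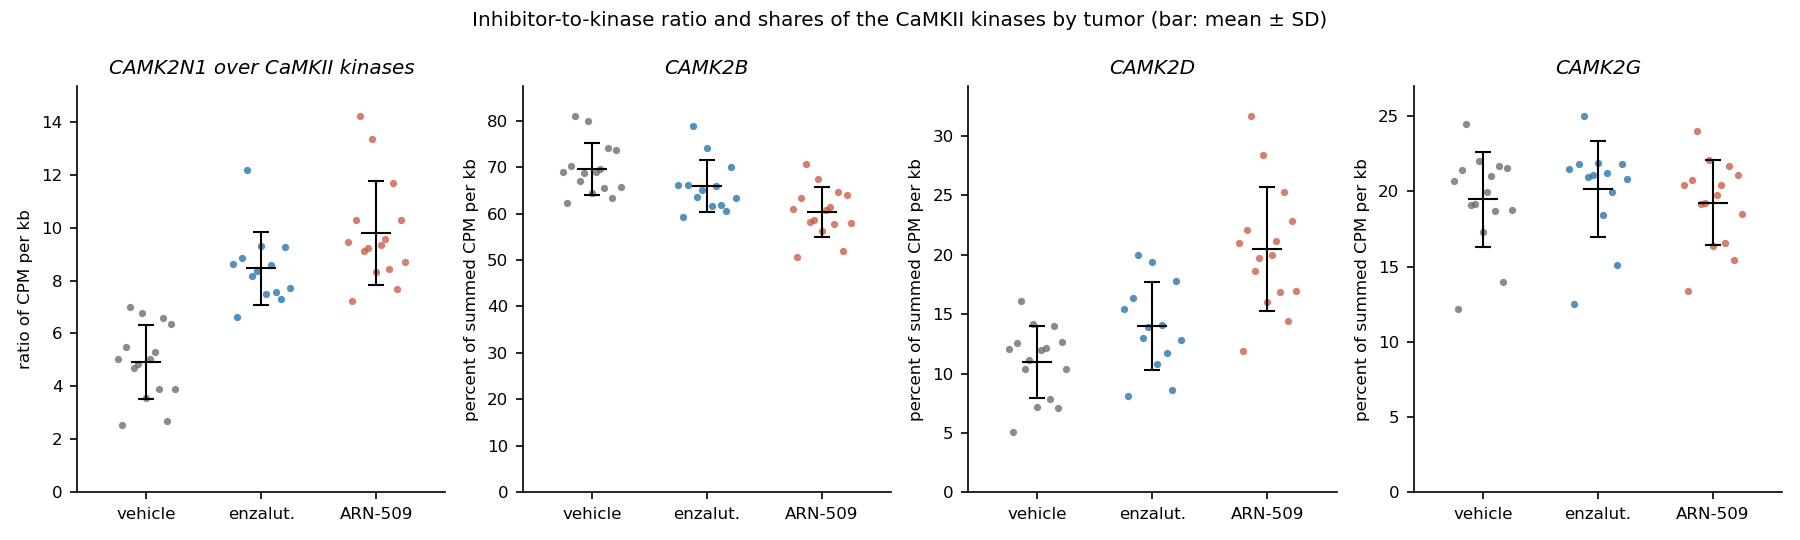
Ratio of CAMK2N1 to the summed CaMKII subunits per kilobase of transcript (left axis), and the percent share of CAMK2B, CAMK2D and CAMK2G in that sum, for every tumor by arm; bars are the mean ± SD. The ratio rises from a mean of 4.92 in vehicle to 8.46 and 9.79 in the drug arms, and the share of CAMK2D from 11% to 14.0% and 20.5%. Levels are without GC and length correction.

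CAMKK2, a kinase kinase of CAMK1, CAMK4 and AMPK, was lower in ARN-509 tumors. It ran from 244 to 697 CPM in vehicle tumors (median 585, mean 564 ± 121), from 355 to 686 CPM in enzalutamide tumors (median 433, mean 462 ± 83.5) and from 328 to 522 CPM in ARN-509 tumors (median 391, mean 402 ± 59.9). Every ARN-509 tumor and 12 of 13 enzalutamide tumors were below the vehicle median, but both ranges overlapped with vehicle. Vehicle 12, at 244 CPM, was the lowest tumor of all and lay below both drug ranges. The next vehicle tumor, at 427 CPM, lay within both. The log2 fold change with ARN-509 was -0.49 ± 0.10 (1.40-fold lower, adjusted p = 2.67e-04).

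With enzalutamide the log2 fold change of CAMKK2 was -0.29 ± 0.10 (95% interval -0.49 to -0.08) and lay near the threshold (adjusted p = 0.0618). It passed without vehicle 12 (-0.34, adjusted p = 0.00421), without enzalutamide 5, the highest tumor of its arm (-0.35, adjusted p = 0.0176), without vehicle 8 (-0.31, adjusted p = 0.0378) or without vehicle 9 (-0.31, adjusted p = 0.0459). DESeq2 (adjusted p = 0.0417) and limma voom (adjusted p = 0.00901) also called it. The drugs differed by 0.20 (95% interval -0.0068 to 0.40, adjusted p = 0.136), which was not resolved.

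CAMKK1, the other kinase kinase, averaged 37.4 ± 9.55 CPM in vehicle, 41.1 ± 8.70 in enzalutamide and 39.4 ± 8.17 in ARN-509 tumors, with ranges that overlapped between 30.1 and 55.6 CPM. Its log2 fold changes of 0.13 ± 0.12 and 0.08 ± 0.11 did not pass (adjusted p = 0.526 and 0.608). Per kilobase, CAMKK2 made up 90.2% ± 3.09 of the transcripts of the kinase kinases in vehicle, 87.4% ± 3.25 in enzalutamide and 86.6% ± 2.51 in ARN-509 tumors.

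CAMK1, a kinase that the kinase kinases activate, was lower in ARN-509 tumors. It ran from 52.6 to 91.7 CPM in vehicle tumors (median 58.2, mean 62.0 ± 10.9), from 46.0 to 65.4 CPM in enzalutamide tumors (median 55.7, mean 55.9 ± 6.01) and from 42.6 to 61.2 CPM in ARN-509 tumors (median 49.3, mean 50.1 ± 5.30). The ranges overlapped, with 11 of 15 ARN-509 tumors below the lowest vehicle tumor. The log2 fold change was -0.30 ± 0.07 with ARN-509 (1.23-fold lower, adjusted p = 9.41e-04).

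With enzalutamide the log2 fold change of CAMK1 was -0.15 ± 0.07 and did not pass (adjusted p = 0.179). The CAMK1 transcript has 58.7% GC, and GC and length correction moved both values. The ARN-509 value became -0.14 (adjusted p = 0.0146) and the enzalutamide value -0.20, which passed (adjusted p = 0.00176). In that fit 15.2% of genes were called with enzalutamide and 28.4% with ARN-509. Between the drugs CAMK1 had 0.15 (adjusted p = 0.0980). That value passed without vehicle 8 (0.16, adjusted p = 0.0491), with only the 2 arms compared (0.16, adjusted p = 0.0447) and by limma voom (0.15, adjusted p = 0.0331). It turned to -0.06 after GC and length correction (adjusted p = 0.456). CAMK4, another kinase activated by the kinase kinases, had 0 counts in all 43 libraries.

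In the main edgeR fit the AMPK subunits did not pass the test against vehicle in either drug arm, and the catalytic subunits differed between the drugs. PRKAA1 encodes the alpha1 subunit. It ran from 57.0 to 191 CPM in vehicle tumors (median 119.7, mean 122 ± 32.5), from 66.3 to 126 CPM in enzalutamide tumors (median 108, mean 107 ± 15.8) and from 114 to 178 CPM in ARN-509 tumors (median 142, mean 145 ± 21.2). The vehicle range covered both drug arms, and all 13 enzalutamide tumors lay below the ARN-509 median. Its log2 values were -0.20 ± 0.11 with enzalutamide (adjusted p = 0.259) and 0.24 ± 0.10 with ARN-509 (adjusted p = 0.0742). The ARN-509 value passed without vehicle 1 (0.27, adjusted p = 0.0460) or vehicle 10 (0.30, adjusted p = 0.0169), and by limma voom (0.25, adjusted p = 0.0126).

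PRKAA2, the alpha2 subunit, had the same order of arms. It ran from 11.9 to 45.0 CPM in vehicle tumors (median 34.7, mean 32.6 ± 9.04), from 14.5 to 38.8 CPM in enzalutamide tumors (median 27.7, mean 26.9 ± 6.75) and from 27.3 to 54.0 CPM in ARN-509 tumors (median 40.6, mean 41.0 ± 8.19). The log2 values against vehicle were -0.28 ± 0.14 (adjusted p = 0.212) and 0.33 ± 0.13 (adjusted p = 0.0551). The ARN-509 value lay at the threshold: 10 of the 43 fits that left out 1 library called it, with adjusted p from 0.0277 to 0.106 over all 43. The libraries left out were vehicle 1, 2, 5, 9 and 10, enzalutamide 9 and ARN-509 2, 3, 5 and 11, and the log2 values were from 0.33 to 0.37. DESeq2 (adjusted p = 0.0490) and limma voom (adjusted p = 0.0197) called the ARN-509 value as well. So did edgeR with library totals (0.37, adjusted p = 0.0408) and at thinned depth (0.36, adjusted p = 0.0491). The enzalutamide value was called by limma voom (-0.32, adjusted p = 0.0445).

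Between the drugs, 3 of the 10 members were lower in enzalutamide tumors and 0 higher, where 14.6% of all genes tested were called lower and 12.2% higher (26.8% in all). CAMK1 was higher at an unadjusted p under 0.05 and by limma voom, and 0 members were higher by DESeq2. After GC and length correction CAMK1 had the opposite sign (-0.06), and at thinned depth CAMK2G was higher (0.26, adjusted p = 0.0367). The 3 lower members were CAMK2D, described above, PRKAA1 (log2 -0.44 ± 0.11, 1.36-fold, adjusted p = 0.00564) and PRKAA2 (-0.60 ± 0.14, 1.52-fold, adjusted p = 0.00386). The transcripts of PRKAA1 and PRKAA2 have 35.3% and 35.2% GC, below all but 1.63% and 1.48% of the genes with a value. After GC and length correction, 6.9% of genes were called between the drugs. PRKAA1 was then at -0.18 and no longer passed (adjusted p = 0.0675), and PRKAA2 was at -0.29 and passed (adjusted p = 0.0217). In the same fit the values of PRKAA1 and PRKAA2 against vehicle were -0.10 and -0.16 with enzalutamide and 0.08 and 0.13 with ARN-509, and none passed.

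PRKAB1, the beta1 subunit on which the AMPK complex assembles, varied little. It averaged 33.6 ± 3.54, 33.9 ± 3.31 and 32.1 ± 2.52 CPM in vehicle, enzalutamide and ARN-509 tumors. Its log2 differences of 0.02 (95% interval -0.10 to 0.13), -0.06 (-0.17 to 0.05) and, between the drugs, 0.07 (-0.04 to 0.19) did not pass the test. PRKAA1 held 87.4% ± 1.53, 88.0% ± 1.64 and 86.7% ± 1.63 of the alpha subunit transcripts per kilobase in the 3 arms.

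Within arms, the members were compared pair by pair over the 43 tumors after each arm's mean log2 level was subtracted. Of 45 pairs, 10 passed a two-sided permutation test (100000 permutations within arms, Benjamini-Hochberg adjustment over the pairs), 3 of them positive. PRKAA1 and PRKAA2 had the strongest relation (Pearson r = 0.87, adjusted p = 4.5e-04; Spearman rho = 0.77, adjusted p = 4.5e-04), which held in each arm (r = 0.93, 0.84 and 0.73) and without the 2 tumors farthest from the median of PRKAA1 (r = 0.77). Vehicle 8 and enzalutamide 9, the 2 tumors with the steepest upward GC trend, had the lowest levels of both genes in their arms. With that trend removed, this was the 1 pair that still passed (r = 0.53, adjusted p = 0.0252).

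The inhibitor and the kinase kinase ran in opposite directions. CAMK2N1 and CAMKK2 had r = -0.45 (p = 0.0104, adjusted p = 0.0495) and rho = -0.40 (p = 0.0103, adjusted p = 0.042), with r of -0.46 in vehicle, -0.41 in enzalutamide and -0.42 in ARN-509 tumors. Vehicle 12 had the highest CAMK2N1 (609.1 CPM) and the lowest CAMKK2 (244 CPM) of its arm, and r was -0.39 without it. Without the 2 tumors farthest from the median of CAMK2N1, r was -0.43. The adjusted p lay at the threshold, and was 0.0805 with library totals and 0.13 after GC and length correction (r = -0.42 and -0.41). With all 44 libraries the sign turned (r = 0.27, adjusted p = 0.118); enzalutamide 4 then enters with its 8 counts of CAMK2N1 and 4 of CAMKK2.

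The other 8 pairs linked CAMK2D, PRKAA1 and PRKAA2, whose transcripts lie below the median in GC content, with each other or with CAMK1, CAMK2B and PRKAB1, which lie above it. CAMK2D was positively related to PRKAA1 (r = 0.53, adjusted p = 0.00352, and rho = 0.47, adjusted p = 0.0213) and to PRKAA2 (r = 0.50, adjusted p = 0.00456, and rho = 0.44, adjusted p = 0.0307). CAMK1 was negatively related to PRKAA1 (r = -0.70, adjusted p = 9e-04, and rho = -0.54, adjusted p = 0.00525), to PRKAA2 (r = -0.68, adjusted p = 9e-04, and rho = -0.45, adjusted p = 0.0213) and to CAMK2D (r = -0.57, adjusted p = 0.00135, and rho = -0.54, adjusted p = 0.00525). CAMK2B was negatively related to PRKAA1 (r = -0.46, adjusted p = 0.00731, and rho = -0.31, adjusted p = 0.124) and to PRKAA2 (r = -0.58, adjusted p = 0.00101, and rho = -0.43, adjusted p = 0.0326). PRKAA1 and PRKAB1 had r = -0.41 (adjusted p = 0.0495) and rho = -0.47 (adjusted p = 0.0213). With library totals that pair had r = -0.16 (adjusted p = 0.656). CAMK2B and PRKAA1 then had r = -0.35 and did not pass either (adjusted p = 0.0524). Without the 2 tumors farthest from the median of the first gene, the positive r were both 0.45 and the negative ones lay between -0.55 and -0.43. After GC and length correction, these 8 correlations lay between -0.34 and 0.19 and none passed.

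**Figure D4:**
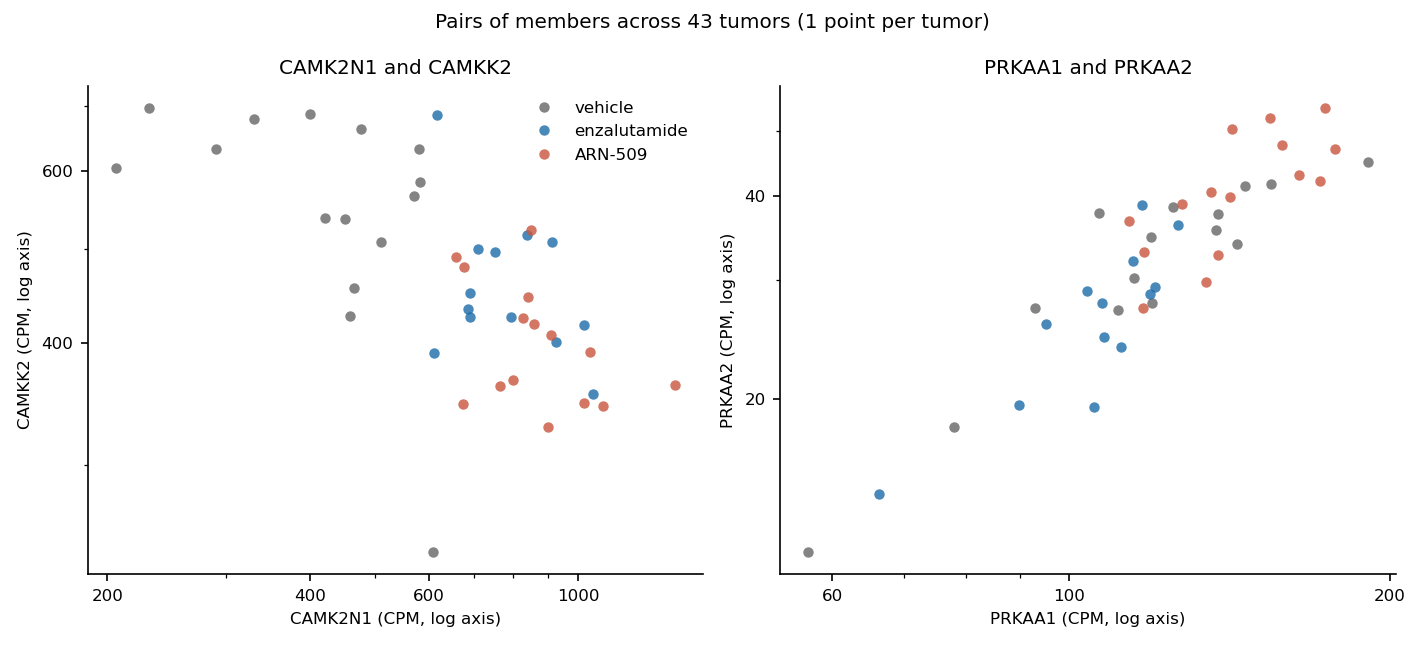
CAMKK2 against CAMK2N1 (left) and PRKAA2 against PRKAA1 (right) in CPM on log axes, 1 point per tumor, colored by arm (43 tumors). Vehicle 12 is the lowest CAMKK2 point at 244 CPM, and PRKAA1 and PRKAA2 rise together within each arm, with vehicle 8 lowest in both.

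The genes around the members were described from 6 lists, chosen with earlier results of these data known. Among all tested genes, 5.1% were called higher and 5.67% lower with enzalutamide, and 14.7% and 16.1% with ARN-509. The counts of each list are to be read beside these shares. Among calmodulin, other calmodulin-dependent kinases and their regulators (15 of 18 tested), 1 rose and 4 fell with enzalutamide, and 1 rose and 4 fell with ARN-509 (list medians -0.04 and -0.15). CAMK1D, the delta isoform of CaM kinase I, averaged 13.4 ± 3.57 CPM in vehicle, 6.88 ± 2.63 in enzalutamide and 7.24 ± 2.82 in ARN-509 tumors. It fell by 0.96 ± 0.18 and 0.85 ± 0.18 on the log2 scale (adjusted p = 2.08e-04 and 3.30e-04). MYLK, the myosin light chain kinase, fell by 0.83 and 0.61 (adjusted p = 0.00196 and 0.00896). PPM1E, a phosphatase that dephosphorylates CaM kinases, fell by 0.74 with enzalutamide (adjusted p = 5.81e-04) and had -0.33 with ARN-509 (adjusted p = 0.0781). The second value passed without vehicle 11, 13 or 14 (-0.37, -0.38 and -0.37) and after GC and length correction (-0.45, adjusted p = 0.00928). In the corrected fit 1 of the 15 genes of this list rose and 8 fell with ARN-509. In that fit 28.4% of all genes were called in either direction. CALM3, 1 of the 3 genes for calmodulin itself, fell by 0.28 with ARN-509 (adjusted p = 6.75e-04) and had 0.01 with enzalutamide.

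Of the other AMPK subunits and the LKB1 complex, an upstream kinase of AMPK (8 of 9 tested), 0 passed with enzalutamide, and 1 rose and 1 fell with ARN-509. Those 0 compare with 2 at an unadjusted p under 0.05, 0 by DESeq2 and 1 by limma voom. Shares of all tested genes, for this list and the next, were 5.1% higher and 5.67% lower with enzalutamide, and 14.7% and 16.1% with ARN-509. PRKAB2, the beta2 subunit, rose by 0.27 ± 0.09 with ARN-509 (adjusted p = 0.0187) from 32.1 ± 7.28 to 39.0 ± 5.18 CPM. STK11, which encodes LKB1, fell by 0.21 ± 0.08 (adjusted p = 0.0380). That call ended after GC and length correction (-0.04, adjusted p = 0.623) and in 10 of 43 fits that left out 1 library, namely vehicle 7, 8, 14 or 15 or ARN-509 1, 6, 8, 10, 12 or 14 (log2 from -0.21 to -0.14). Library totals, no filter, only the 2 arms compared, all 44 libraries, a replicate block and thinned depth ended it too (adjusted p from 0.0520 to 0.137). Of AMPK substrates (16 of 17 tested), 1 rose and 1 fell with each drug. FOXO3, a transcription factor, rose by 0.24 ± 0.07 and 0.43 ± 0.07 (adjusted p = 0.0230 and 1.20e-05). Its enzalutamide call ended with only these 2 arms in the fit (adjusted p = 0.0514), with all 44 libraries (0.0951) and at thinned depth (0.0563). TBC1D4, a Rab GTPase-activating protein of glucose transporter traffic, fell by 0.31 with enzalutamide (adjusted p = 0.0358). Its call ended without vehicle 1, 2, 3, 4, 5 or 9 or enzalutamide 1, 5, 6, 7, 9 or 12 (log2 from -0.30 to -0.27). It ended as well with library totals (adjusted p = 0.0694), no filter (0.0515), only the 2 arms compared (0.0658), a replicate block (0.130) and thinned depth (0.147). After GC and length correction TBC1D4 passed (-0.24, adjusted p = 0.00658). SREBF1, a transcription factor of lipid synthesis, fell by 0.30 with ARN-509 (adjusted p = 0.0344). Its call ended after GC and length correction (-0.17, adjusted p = 0.122) and without vehicle 7, 8, 9 or 12 or ARN-509 6, 9, 12 or 14 (log2 from -0.29 to -0.25). With library totals, a replicate block and thinned depth SREBF1 did not pass either (adjusted p = 0.0854, 0.0668 and 0.0518).

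Of the AMPK-related kinases (11 of 12 tested), 1 rose and 0 fell with enzalutamide, and 3 rose and 0 fell with ARN-509 by edgeR. By edgeR 5.1% of all tested genes were higher and 5.67% lower with enzalutamide, and 14.7% and 16.1% with ARN-509. For these kinases DESeq2, limma voom and an unadjusted p under 0.05 likewise gave 0 that fell. The 3 were SIK1, a salt-inducible kinase (0.54 ± 0.17, adjusted p = 0.0140), MARK1, a microtubule affinity-regulating kinase (0.25 ± 0.08, adjusted p = 0.0163), and SNRK (0.23 ± 0.08, adjusted p = 0.0348). After GC and length correction MARK1 and SNRK did not pass (adjusted p = 0.0567 and 0.0727), and SNRK also lost its call without vehicle 7, 8, 9 or 11 or ARN-509 11, 12, 14 or 15 (log2 from 0.18 to 0.22). For calcineurin, the calcium and calmodulin-activated phosphatase, and its regulators (12 of 13 tested), 3 rose and 0 fell with enzalutamide (2 fell at an unadjusted p under 0.05, 0 by DESeq2 and 1 by limma voom), and 6 rose and 1 fell with ARN-509. RCAN2, a calcineurin inhibitor, rose from 4.21 ± 1.98 CPM to 7.29 ± 1.78 and 7.93 ± 1.44 CPM (log2 0.79 ± 0.17 and 0.92 ± 0.17, adjusted p = 0.00121 and 6.31e-05). At thinned depth its enzalutamide value was 0.51 and did not pass (adjusted p = 0.189). PPP3CA and PPP3CB, catalytic subunits of calcineurin, rose by 0.25 and 0.22 with ARN-509 (adjusted p = 0.0227 and 0.00364). The call of PPP3CA ended without vehicle 8 (0.20, adjusted p = 0.0543) and after GC and length correction (0.15, adjusted p = 0.0882). CABIN1, a calcineurin-binding inhibitor, fell by 0.27 with ARN-509 (adjusted p = 0.00461).

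Of the calcium release channels and pumps (13 of 15 tested), 1 rose and 3 fell with enzalutamide, and 5 rose and 2 fell with ARN-509. Over all tested genes, the shares higher and lower were 5.1% and 5.67% with enzalutamide and 14.7% and 16.1% with ARN-509. ATP2B2, a plasma membrane calcium pump, was low in vehicle tumors, with a median of 0.406 CPM and a highest value of 4.88. It ran from 3.04 to 5.73 CPM in enzalutamide and from 1.55 to 6.94 CPM in ARN-509 tumors. The arms overlapped with vehicle, and the log2 fold changes were 2.09 ± 0.30 and 2.22 ± 0.30 (adjusted p = 2.11e-06 and 2.41e-07). ATP2B4, another plasma membrane pump, moved the other way, from 27.9 ± 6.63 CPM to 17.5 ± 2.34 and 20.9 ± 4.16 CPM (log2 -0.68 ± 0.11 and -0.43 ± 0.10, adjusted p = 9.14e-06 and 0.00172). ITPR1, a calcium channel of the endoplasmic reticulum, averaged 334 ± 112, 354 ± 67.0 and 531 ± 121 CPM. It rose by 0.67 ± 0.13 with ARN-509 (adjusted p = 1.22e-04), had 0.09 with enzalutamide (adjusted p = 0.751), and differed between the drugs (-0.58 ± 0.13, adjusted p = 0.00384). ATP2C1, the Golgi calcium pump, rose by 0.46 ± 0.09 with ARN-509 (adjusted p = 6.11e-05).

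**Figure D5:**
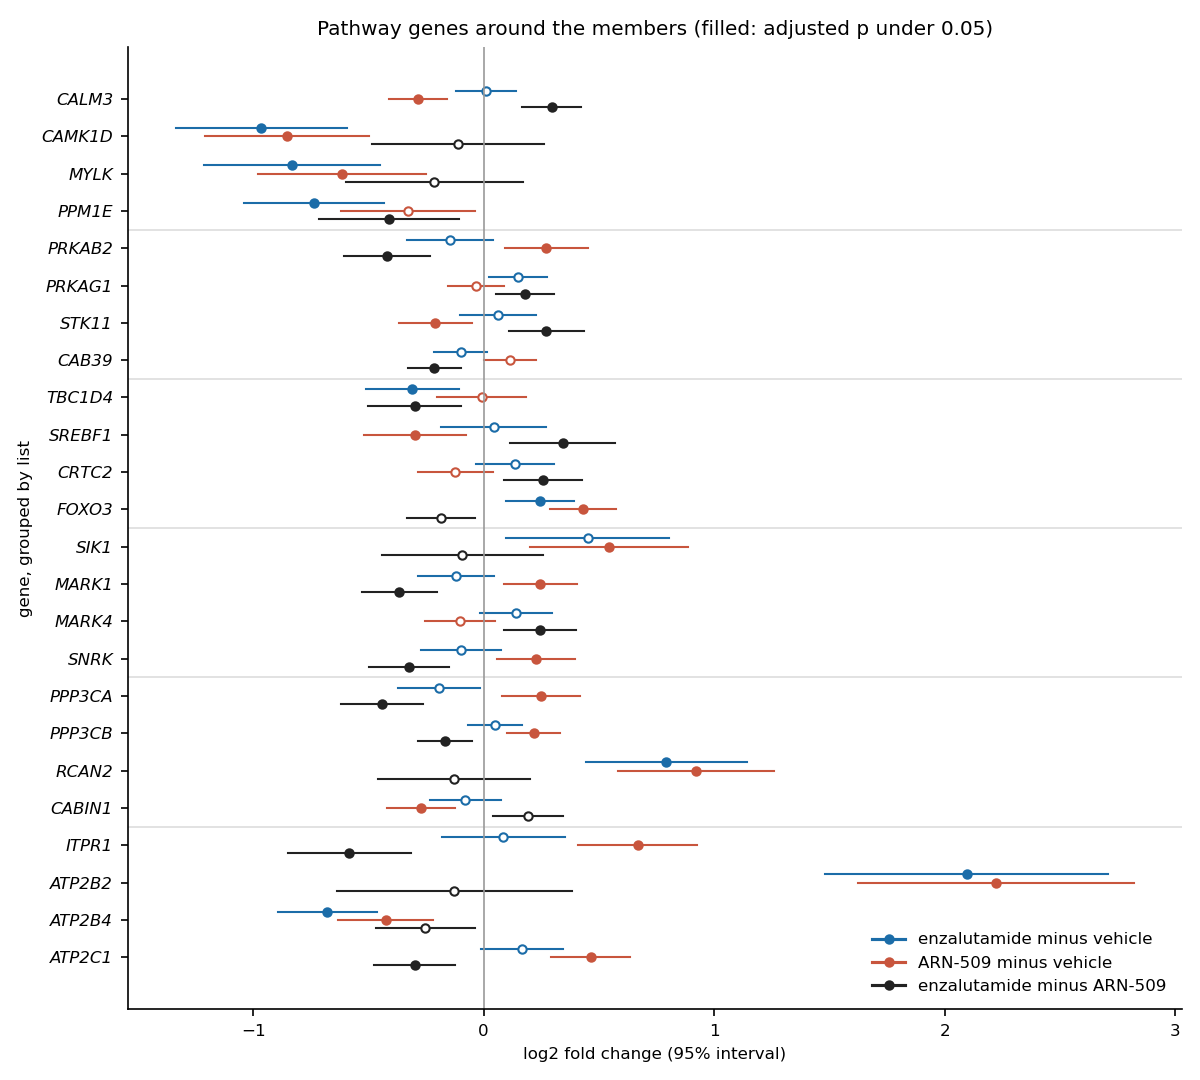
log2 fold change with its 95% interval (horizontal axis) of the named pathway genes (rows, grouped by list) for enzalutamide against vehicle (blue), ARN-509 against vehicle (red) and enzalutamide against ARN-509 (black), from edgeR's quasi-likelihood test; filled points have an adjusted p under 0.05. ATP2B2 lies farthest to the right, at 2.09 and 2.22 against vehicle, and CAMK1D farthest to the left, at -0.96 and -0.85.

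Between the drugs, the same lists had 1 of 15 higher and 2 lower in enzalutamide tumors for the calmodulin genes, 2 of 8 higher and 2 lower for the AMPK subunits and LKB1 complex, and 2 of 16 higher and 1 lower for AMPK substrates. Among all genes tested, 12.2% were called higher in enzalutamide tumors and 14.6% lower. Of the AMPK-related kinases 1 of 11 was higher and 2 lower. Of the calcineurin genes 0 of 12 were higher and 4 lower, and of the calcium channels and pumps 0 of 13 were higher and 6 lower. At an unadjusted p under 0.05 those counts of 0 were 1 and 0, and by DESeq2 and limma voom they were likewise 1 and 0 each. GC and length correction ended most of these calls. It left 1 of 3 for the calmodulin genes (CALM3), 1 of 4 for the AMPK subunits and LKB1 complex (PRKAB2), 0 of 3 for AMPK substrates, 1 of 3 for AMPK-related kinases (MARK1), 1 of 4 for calcineurin genes (PPP3CA) and 1 of 6 for calcium channels and pumps (ITPR1), where 6.9% of all genes were called. STK11 was then at 0.05, PPP3CB at -0.03 and ATP2C1 at -0.13 (adjusted p = 0.562, 0.711 and 0.183). The lower values that held were PRKAB2 (-0.42 ± 0.09, adjusted p = 0.00361), MARK1 (-0.37 ± 0.08, adjusted p = 0.00366) and PPP3CA (-0.44 ± 0.09, adjusted p = 0.00305), at -0.24, -0.22 and -0.30 after correction (adjusted p = 0.0144, 0.0297 and 0.0112), beside ITPR1. CALM3 was higher in enzalutamide tumors by 0.29 ± 0.06 (adjusted p = 0.00357), and by 0.15 with the trend removed (adjusted p = 0.0431).

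Across the 43 tumors, the genes whose log2 CPM followed CAMK2N1 most closely were APOL4 (Spearman rho = 0.859), CPLX3 (0.856), NOV (0.827), TMPRSS4 (0.819) and LOC100130417 (0.817), out of 13519 genes compared. These values include the differences between arms, and the tumors share arm and library depth. After the arm means were subtracted, CPLX3 (0.775), APOL4 (0.738), DTX3 (0.718), HSBP1L1 (0.685) and NRARP (0.672) were the closest. For CAMKK2 the closest were FAM115C (0.889), PXN (0.821), FZD1 (0.801), PRKCH (0.80) and LOX (0.799). Within arms they were ABAT (0.799), FAM115C (0.789), SDK1 (0.788), AHCYL2 (0.769) and RCBTB2 (0.735). CPLX3 and APOL4 thus stood among the 5 closest to CAMK2N1 on both scales, and FAM115C among the 5 closest to CAMKK2. FAM115C itself had log2 fold changes of -0.60 and -1.17 with enzalutamide and ARN-509.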

How the data were processed

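RNA of 44 xenograft tumors was sequenced from TruSeq RNA v2 libraries, per the labels' protocols; that kit does not mark strand. The authors deposited raw read counts per gene symbol in 1 table of 23368 genes. The build was hg19, and the tools listed in the submitters' processing notes are TopHat2 2.1.0, HTSeq 0.6.1, Picard 1.77 and bcl2fastq 1.8.4. How mouse reads were handled, which annotation was counted and whether strand was used is not given in the sources used here. Counts of human genes may therefore hold mouse reads, and antisense partners cannot be told apart. Transcript lengths and GC content came from GENCODE v29 and promoters from RefSeq, both matched by symbol on GRCh38.

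Columns were matched to tumors by the labels (0 unmatched). Enzalutamide 4 (80142 counts) was left out. Counts were filtered with filterByExpr, scaled by TMM and fitted with edgeR 4.0.16 (R 4.3.3) as a robust quasi-likelihood model of 43 libraries together, in which arm was the sole covariate. P-values were adjusted over the 13520 tested genes with a threshold of 0.05. CPM are relative to the TMM-scaled library size, except in the rule for dropping members and the marker sums, which used unadjusted totals. Correlations used log2 CPM with a prior count of 1. GC content and length were available for 88.9% of tested genes. No 2 libraries of an arm agreed within sampling noise. Cage and week of castration, used to allocate mice, are not labelled per library and were not entered as terms. Counts of 13520 genes were also simulated, without a GC or length trend and with changes only in genes above a minimum vehicle level. There the test recovered 90% and 94% of 1.5-fold changes for enzalutamide and ARN-509 against vehicle. Of its calls, 5.47% and 4.9% were false. Recovery in genes of lower level, or under a trend as in these libraries, was not simulated.

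The members and lists were chosen with earlier results of these data known. Named genes are the 10 members, up to 4 members of each pathway list with the smallest p in any comparison, and the 5 genes most correlated with CAMK2N1 or CAMKK2 over 43 tumors, with and without arm means subtracted. CAMK2N2, CAMK2A and CAMK4 are named beside them as list members. One luminal marker is not reported here and was left out of the luminal sum. Other settings tried were scaling by library totals or by DESeq2 size factors, no filter or at least 1 CPM in 13 libraries, no robust estimation, DESeq2 1.42.0, only the 2 arms compared, limma 3.58.1 voom with quality weights, all 44 libraries, a replicate block, removal of each library's GC and length trend, thinning to 3377450 counts, and leaving out each library in turn. Chosen after seeing the data were the trend removal for the pairs, the fit of shared numbers without the block, the pair without vehicle 12, median transcript lengths, and other scalings of the CAMK2N1 ranges.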

Additional observations from a re-analysis of the deposited data

How the results depend on the processing

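For the members, 1648 of 1680 single-gene values under an alternative kept their side of the threshold, 30 became calls and 2 lost a call; for the other named genes these counts were 3864 of 4032, 41 and 126. Among values not called in either fit, 26 of the members and 31 of the other named genes changed sign. The 1 called value that changed sign was PPP3CB between the drugs, at 0.13 (adjusted p = 0.792) with all 44 libraries. The number of genes called with enzalutamide was 2551 with limma voom and 638 after thinning, and that of members 4 and 1. After thinning, 2417 genes were called with ARN-509 and 1961 between the drugs. After GC and length correction, 830 genes were called between the drugs and 1 pair of members. Leaving out 1 library gave 1145 to 1794 genes and 2 to 3 members with enzalutamide, 3261 to 5045 and 4 to 6 with ARN-509, and 2680 to 4269 and 3 to 4 between the drugs. The log2 inhibitor ratio then lay between 0.76 and 0.87, 0.97 and 1.07, and -0.25 and -0.16. With all 44 libraries it was 0.60 with enzalutamide and -0.43 between the drugs. Scaling to library totals moved the calls from 689 higher and 766 lower to 838 and 600 with enzalutamide, from 1988 and 2178 to 2713 and 1466 with ARN-509, and from 1647 and 1976 to 1202 and 2263 between the drugs. The numbers in the titles did not pair the tumors (same-number correlations had medians of -0.02, 0.05 and -0.0037, and 1, 2 and 0 of 13 tumors correlated best with their own number). With that number as a replicate block over 39 libraries, 987, 3129 and 2855 genes were called, against 1002, 3223 and 2930 genes in the same libraries without it. The cause of these shifts was not tested. After thinning to 3377450 counts, CAMK2D with enzalutamide no longer passed (adjusted p = 0.0562), nor did MYLK, PRKAB2, MARK1 and SIK1 with ARN-509 (adjusted p = 0.160, 0.101, 0.379 and 0.0782).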
